A study of Macaca mulatta with 12 samples.

Results

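The synaptic vesicle and release machinery was followed in the lateral geniculate nucleus (LGN), the thalamic relay between retina and visual cortex, of rhesus macaques deprived of vision in 1 eye. The set held 43 genes chosen by name: vesicle proteins, vesicular glutamate transporters, SNARE proteins, active-zone scaffolds and endocytic proteins. Of these, 40 had at least 1 probe set that named only that gene, 77 probe sets in all of the 22283 on the human Affymetrix array. SYT4, CPLX1 and NAPB had none. After a filter on low intensity, 57 of the 77 probe sets remained among 11105 tested, and 36 of the 43 genes remained among 7285 genes, each represented by its probe set of highest mean. CPLX2, RAB3B, SV2C and UNC13A lay below the filter.

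Total RNA from each of the 6 layers was measured once ipsilaterally and once contralaterally, 12 samples in all. Layers 2, 3 and 5 ipsilaterally and layers 1, 4 and 6 contralaterally were the deprived layers (n = 6). Layers 1, 4 and 6 ipsilaterally and 2, 3 and 5 contralaterally were non-deprived (n = 6). All came from monocularly deprived monkeys, so the non-deprived layers served as the controls, and no sample of an animal with normal vision was analysed here. The large-celled (magnocellular) layers are layers 1 and 2, with 4 samples, and the small-celled (parvocellular) layers are 3 to 6, with 8. The labels give neither the age of the animals, the method or length of deprivation, their number, nor which samples shared an animal. The p-values therefore measure the spread between layer samples and are too small as statements about animals where samples came from the same one.

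Neurotransmitter is packed into synaptic vesicles by membrane transporters, and the filled vesicles are tethered and primed at the active zone by scaffold proteins. Calcium binding to synaptotagmin then triggers fusion through the SNARE proteins on vesicle and plasma membrane, after which NSF and its adaptors take the SNARE complex apart and clathrin and its partners retrieve the membrane. In neurons, messenger RNA for these proteins lies mainly in the cell bodies. The neuronal RNA of an LGN layer therefore reports mostly on its relay cells and interneurons rather than on the retinal and cortical axons that end there. Some genes of the set, such as SYPL1, are also made outside neurons, and the RNA of a layer includes that of glia.

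The deprived layer 2 sample stood apart from the other 11. Its mean correlation with them was 0.868 against 0.897 to 0.934, and the GAPDH control probes, whose 3' to 5' signal ratio rises as RNA degrades, gave 9.38 there, 11 in deprived layer 5 and 2.21 to 5.65 in the other 10. Array medians ranged from 411.5 to 666.5 although trimmed means were equal. Markers of neurons and of glia were present: 15 of 18 general neuron and 6 of 9 relay cell markers passed the filter, as did 14 of 15 astrocyte and 14 of 20 oligodendrocyte markers. NEFM, a neurofilament rich in magnocellular neurons, was higher in layers 1 and 2 by 0.83 ± 0.12 (log2 ± standard error, limma adjusted p = 0.0030). It alone of the 15 general neuron markers had an adjusted p under 0.05 by cell class. Of those 15, 11 were higher and 4 lower in magnocellular layers, with a median of 0.03. Each result below was also computed without the deprived layer 2 sample.

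Across the set, most genes had a lower intensity in the deprived layers, but none changed past the threshold of adjusted p under 0.05. Of the 36 genes, 27 had a negative and 9 a positive log2 difference between deprived and non-deprived samples, with a median of -0.18, against 46.9% negative and a median of 0.02 over all 7285 genes. Among the 57 probe sets 0 passed in limma, where 7 of 11105 (0.063%) did. At an unadjusted p under 0.05, 12 of the 57 probe sets (21.1%) differed, against 12% of all. By gene, 8 of 36 (22.2%) were lower, against a background of 6.33%, and 1 (2.78%) was higher, against 6.09%. In no gene of the set were the deprived and non-deprived samples fully separated, as they were in 0.343% of all genes downwards and 0.302% upwards.

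The size of this difference rested partly on level and partly on 1 sample. In the top 25% by mean intensity, where 24 of the 36 genes lay, 22 were negative with a median of -0.22, against 62.7% and -0.07 for all 1822 genes at that level. Without the deprived layer 2 sample, 23 of the 36 were negative (46.8% of all genes) and the median was -0.05. At an unadjusted p under 0.05, 6 were then lower (16.7%, against 4.85% of all genes) and 1 was higher, and 21 of the 24 bright ones were negative with a median of -0.20. When each array was instead centred on its own median, which moved the median of all genes by -0.14, the split was 33 negative to 3 positive, against 67% negative over all genes. With quantile normalization it was again 27 to 9, against 52.3% negative over all genes, with 6 genes changing sign, and 3 rather than 8 genes were lower at an unadjusted p under 0.05, where 5.89% of all genes were. In bulk layers, fewer cells of a type and less RNA per cell cannot be told apart.

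**Figure D1:**
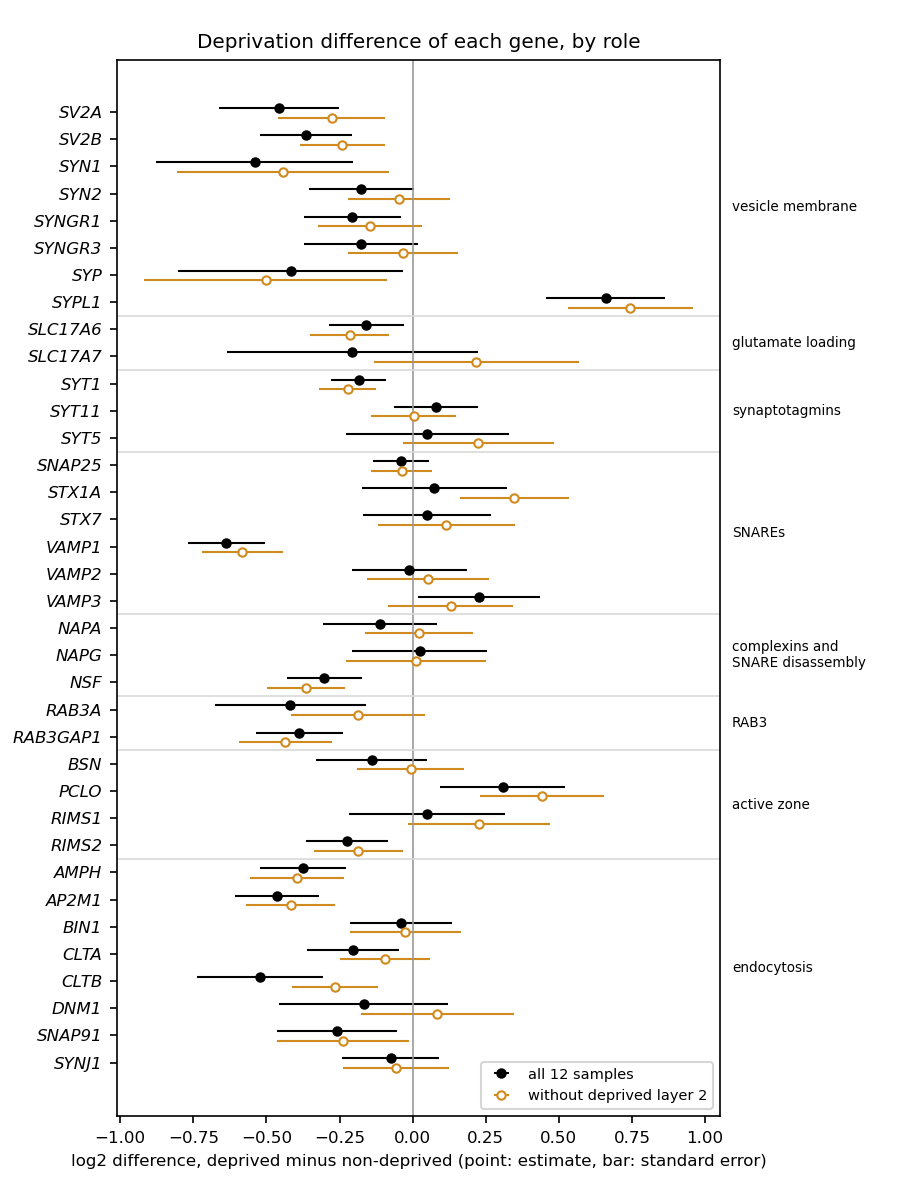
Log2 difference between deprived and non-deprived layers (horizontal axis) for each of the 36 genes (vertical axis), ordered by role, with bars of 1 standard error from limma; black points use all 12 samples and open orange points leave out deprived layer 2. VAMP1 lies farthest to the left at -0.64 and SYPL1 farthest to the right at 0.66, and the CLTB point moves from -0.52 to -0.26 when deprived layer 2 is left out.

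A score was computed for each sample as the mean over the 36 genes of log2 intensity minus that gene's mean over the 12 samples. Deprived samples scored -0.0798 ± 0.216 (SD, n = 6) and non-deprived samples 0.0798 ± 0.0606 (n = 6), a difference of -0.160. The lowest scores were those of the deprived magnocellular layers, -0.494 in layer 2 and -0.120 in layer 1, and every other sample lay between -0.0283 and 0.152. The differences that follow come from a linear fit of the score with cell class and hemisphere as further terms. Without deprived layer 2 the fitted difference was -0.0776, and without both samples of highest GAPDH ratio (deprived layers 2 and 5) -0.0840. In the parvocellular layers alone, with hemisphere as the further term, it was -0.0370. With arrays centred on their medians it was -0.296. The score describes a chosen list and was not tested.

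Layer by layer, the deprived sample scored lower than the non-deprived sample of the same layer in 6 of 6 layers. The difference was -0.273 in layer 1 and -0.537 in layer 2. It was -0.0654 in layer 3, -0.0497 in layer 4, -0.00972 in layer 5 and -0.0232 in layer 6. In layers 1 and 2, 25 and 29 of the 36 genes were lower in the deprived sample, where 59.9% and 46.8% of all genes were. In layers 3 to 6 the numbers were 19, 20, 18 and 18 of 36, where 44%, 55.3%, 38.5% and 47.8% of all genes were lower. Each of these differences also holds the difference between the hemispheres, since 1 sample of each layer came from each side.

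**Figure D2:**
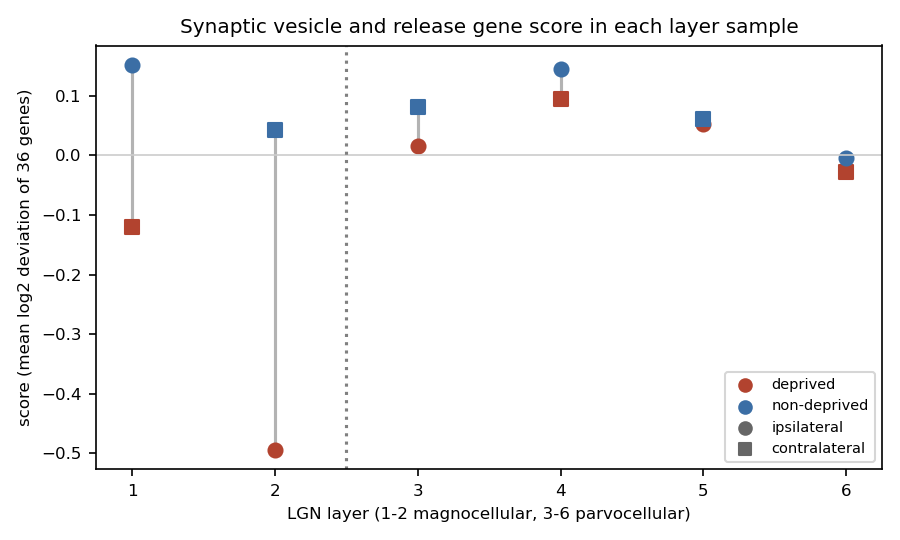
Score of the 36 genes (vertical axis, mean log2 deviation from each gene's own mean) in each of the 12 samples by LGN layer (horizontal axis). Red points are deprived and blue points non-deprived, circles are ipsilateral and squares contralateral, grey lines join the samples of a layer and the dotted line separates magnocellular from parvocellular layers. The deprived point is the lower of the pair in all 6 layers, with gaps of -0.273 and -0.537 in layers 1 and 2 and of -0.0654 or smaller in size in layers 3 to 6.

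Among the vesicle membrane proteins, 7 of the 8 measured genes were lower in deprived layers and 1, SYPL1, was higher, and none passed. SV2B encodes a glycoprotein of the vesicle membrane. Its intensity (lowest, median and highest of 6 samples) was 4573, 6547 and 7686 in deprived layers and 6929, 8121 and 9484 in non-deprived layers. Deprived layers 1, 2, 5 and 6 lay below every non-deprived sample, and deprived layers 3 and 4 lay within the non-deprived range. The log2 difference was -0.37 ± 0.16 (0.776 times; adjusted p = 0.368), with the deprived sample lower in 5 of 6 layers, and -0.24 without deprived layer 2.

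SYPL1, a synaptophysin relative that is also made outside neurons, ran the other way. It measured 3230, 3533 and 5035 in deprived layers and 1366, 2459 and 3487 in non-deprived layers. Non-deprived layer 6 alone reached the deprived range. The difference was 0.66 ± 0.20 (1.58 times; adjusted p = 0.209), positive in 5 of 6 layers and 0.74 without deprived layer 2. A dimmer probe set of the gene differed by 0.12. Synaptophysin itself (SYP), a major vesicle protein, had a difference of -0.42 ± 0.38 that ranged over layers from -1.84 in layer 1 to 1.21 in layer 6.

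The other vesicle membrane genes had smaller or more variable differences. SV2A, the vesicle protein bound by the drug levetiracetam, had a difference of -0.46 ± 0.20 (unadjusted p = 0.039, adjusted p = 0.39) and -0.28 without deprived layer 2. SYN1 and SYN2 encode synapsins, which tether vesicles into a reserve pool. SYN1 was lower in 5 of 6 layers (-0.54 ± 0.34), and its highest values, 17451 and 12360, were those of non-deprived and deprived layer 4. SYN2, SYNGR1 and SYNGR3 differed by -0.18, -0.21 and -0.18, of which the synaptogyrins SYNGR1 and SYNGR3 are further vesicle membrane proteins.

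The vesicular glutamate transporters load vesicles with glutamate, and SLC17A6 is the form known from thalamic relay cells. SLC17A6 measured 24556, 32336 and 42638 in deprived layers and 31478, 35728 and 39602 in non-deprived layers. The deprived range enclosed the non-deprived range, and the difference of -0.16 ± 0.13 (adjusted p = 0.682) did not pass. SLC17A7 varied most of all 36 genes, with an SD of 1.06 on the log2 scale over the 12 samples. It measured 189.9, 796.0 and 3684 in deprived layers and 409.3, 926.5 and 1375 in non-deprived layers, and its difference of -0.21 ± 0.43 became 0.22 without deprived layer 2.

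Synaptotagmin 1 (SYT1), the calcium sensor of fast release, was among the steadiest genes in its brightest probe set. It measured 74263, 82787 and 85775 in deprived layers and 78403, 94562 and 100344 in non-deprived layers. All non-deprived samples but that of layer 1 exceeded every deprived sample. The difference was -0.18 ± 0.09 (0.880 times; adjusted p = 0.45), and the deprived sample was lower in 6 of 6 layers, as it was in 2.61% of all genes. A second probe set of SYT1 gave -0.08 and was lower in 3 of 6 layers. SYT11, which has no known calcium-sensor role in fusion, and SYT5 differed by 0.08 and 0.05.

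VAMP1, the vesicle SNARE also called synaptobrevin 1, had the smallest p of the set for deprivation. It measured 19448, 25757 and 39051 in deprived layers and 36075, 41057 and 51057 in non-deprived layers. Deprived layer 1 alone lay within the non-deprived range. The difference was -0.64 ± 0.13 (0.643 times; unadjusted p = 0.00018, adjusted p = 0.101), so VAMP1 did not pass. The layer differences were -0.18, -1.0, -0.97, -0.47, -0.48 and -0.73 from layer 1 to layer 6, lower in 6 of 6. A dimmer VAMP1 probe set gave -0.48 (unadjusted p = 0.017), lower in 5 of 6 layers. The main probe set passed when deprived layer 5 was left out (-0.73, adjusted p = 0.0439), one of 20 probe sets called there, and was -0.58 without deprived layer 2.

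In their brightest probe sets, the related vesicle SNAREs did not share the VAMP1 pattern. VAMP2, the main form in forebrain, measured 2793, 3418 and 6327 in deprived layers and 3206, 3684 and 4722 in non-deprived layers. These ranges overlapped almost fully, and the difference was -0.01 ± 0.20, which changed sign with quantile normalization. A dimmer VAMP2 probe set had layer differences of -0.97, -1.26, -0.37, 0.47, -0.28 and 0.50 from layer 1 to layer 6. Another dimmer VAMP2 probe set had -0.32, -0.78, 0.24, -0.26, 0.02 and 0.61, so the contrast with VAMP1 varied with the probe set. VAMP3, a more widely expressed form, gave 0.23 ± 0.21 in its brightest probe set. A dimmer VAMP3 probe set gave 0.63 (unadjusted p = 0.0055, adjusted p = 0.214), higher in 5 of 6 layers. The differences between VAMP1, VAMP2 and VAMP3 were not tested against each other.

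**Figure D3:**
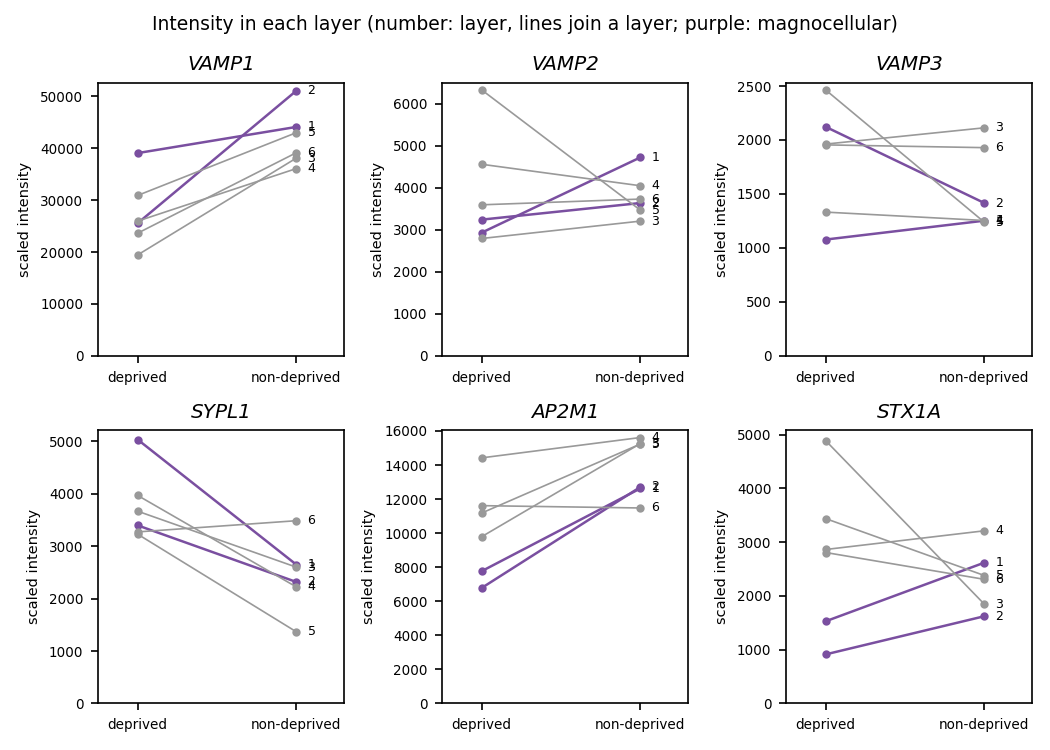
Scaled intensity (vertical axes, each from 0) of VAMP1, VAMP2, VAMP3, SYPL1, AP2M1 and STX1A in the 6 deprived and 6 non-deprived samples, 1 panel per gene; lines join the samples of a layer, numbers give the layer, and purple marks magnocellular layers 1 and 2. All 6 lines rise towards the non-deprived side for VAMP1 and 5 of 6 fall for SYPL1, while those of STX1A rise in layers 1, 2 and 4 and fall in layers 3, 5 and 6.

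Averaged over layers, SNAP25 and the syntaxins differed little with deprivation in their brightest probe sets. SNAP25 measured 55755, 59904 and 69186 in deprived layers and 59662, 61981 and 69215 in non-deprived layers. It had the smallest spread of the set (SD 0.10 on the log2 scale) and a difference of -0.04 ± 0.10, which changed sign with quantile normalization. A second SNAP25 probe set ranged more widely, and its lowest values, 10902 and 16809, were in deprived layers 5 and 2, the samples of highest GAPDH 3'/5' ratio, whose part in this was not tested. STX1A, the neuronal plasma membrane syntaxin, differed by 0.07 ± 0.25. This averaged opposite differences, 0.51 in parvocellular and -0.80 in magnocellular layers. STX7, an endosomal syntaxin, differed by 0.05 ± 0.22.

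Of the proteins that take SNARE complexes apart, NSF, the ATPase, was lower. It measured 31330, 36485 and 44424 in deprived layers and 35243, 48491 and 58246 in non-deprived layers. Non-deprived layers 2, 3, 5 and 6 exceeded every deprived sample. The difference was -0.30 ± 0.13 (0.811 times; unadjusted p = 0.031, adjusted p = 0.363). The adaptors NAPA and NAPG differed by -0.11 and 0.02. A dimmer NAPA probe set had layer differences of -0.67, -2.78, -0.40, 0.62, -0.89 and 0.38 from layer 1 to layer 6.

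Both RAB3 genes above the filter were lower. RAB3GAP1, a subunit of the complex that switches RAB3 off, measured 14264, 16240 and 17618 in deprived layers and 15021, 22149 and 26828 in non-deprived layers. Non-deprived layers 1, 3, 5 and 6 exceeded every deprived sample. The difference was -0.39 ± 0.15 (0.765 times; unadjusted p = 0.018, adjusted p = 0.321), lower in 5 of 6 layers, while a dimmer probe set gave 0.04. RAB3A, the vesicle GTPase itself, gave -0.42 ± 0.26 and -0.19 without deprived layer 2.

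The active-zone scaffolds were mixed. PCLO (Piccolo) was higher in 5 of 6 layers, with a difference of 0.31 ± 0.21 (adjusted p = 0.615). RIMS2, which links vesicles to calcium channels, was lower in 5 of 6 layers (-0.22 ± 0.14). BSN (Bassoon) and RIMS1 differed by -0.14 and 0.05.

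In their brightest probe sets, all 8 endocytic genes had a negative difference, from -0.52 to -0.04. With quantile normalization SYNJ1 had a positive one. So did DNM1, SYNJ1 and BIN1 when certain single samples were left out (up to 0.09, 0.06 and 0.05). At an unadjusted p under 0.05, 3 were lower, as were 6.33% of all genes. AP2M1, a subunit of the adaptor that joins clathrin to the membrane, measured 6782, 10486 and 14420 in deprived layers and 11477, 13971 and 15614 in non-deprived layers. Deprived layers 1, 2, 3 and 5 lay below every non-deprived sample. The difference was -0.47 ± 0.14 (0.724 times; unadjusted p = 0.0049, adjusted p = 0.209) and -0.42 without deprived layer 2.

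The clathrin light chain gene CLTB measured 3810, 10070 and 13927 in deprived layers and 10929, 12848 and 14180 in non-deprived layers. Its lowest value was that of deprived layer 2, and deprived layers 1, 4 and 6 also lay below the non-deprived range. The difference was -0.52 ± 0.22 (adjusted p = 0.346) with all samples and -0.26 without deprived layer 2. Further CLTB probe sets gave -0.50 and -0.19. The other light chain, CLTA, gave -0.20.

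AMPH (amphiphysin), which binds clathrin, its adaptor and dynamin, measured 17248, 24305 and 32180 in deprived layers and 17422, 34865 and 42314 in non-deprived layers. Non-deprived layers 2, 3, 5 and 6 exceeded every deprived sample, and the difference was -0.38 ± 0.15 (unadjusted p = 0.022, adjusted p = 0.33). SNAP91, a clathrin assembly protein, gave -0.26. DNM1, the dynamin that cuts vesicles from the membrane, gave -0.17. SYNJ1, a phosphatase that helps uncoat them, gave -0.08 and BIN1, an amphiphysin relative, gave -0.04. A dimmer BIN1 probe set had layer differences of -0.44, -0.12, 0.76, 0.35, -0.28 and 0.15 from layer 1 to layer 6. Another had -0.34, 0.19, 1.09, 0.03, 0.73 and 0.03. Further BIN1 probe sets ranged over layers from -2.02 to 0.32 and from -1.95 to 0.54. Without deprived layer 2 the endocytic median was -0.17 in place of -0.23, and DNM1 was the gene with a positive difference (0.08).

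**Figure D4:**
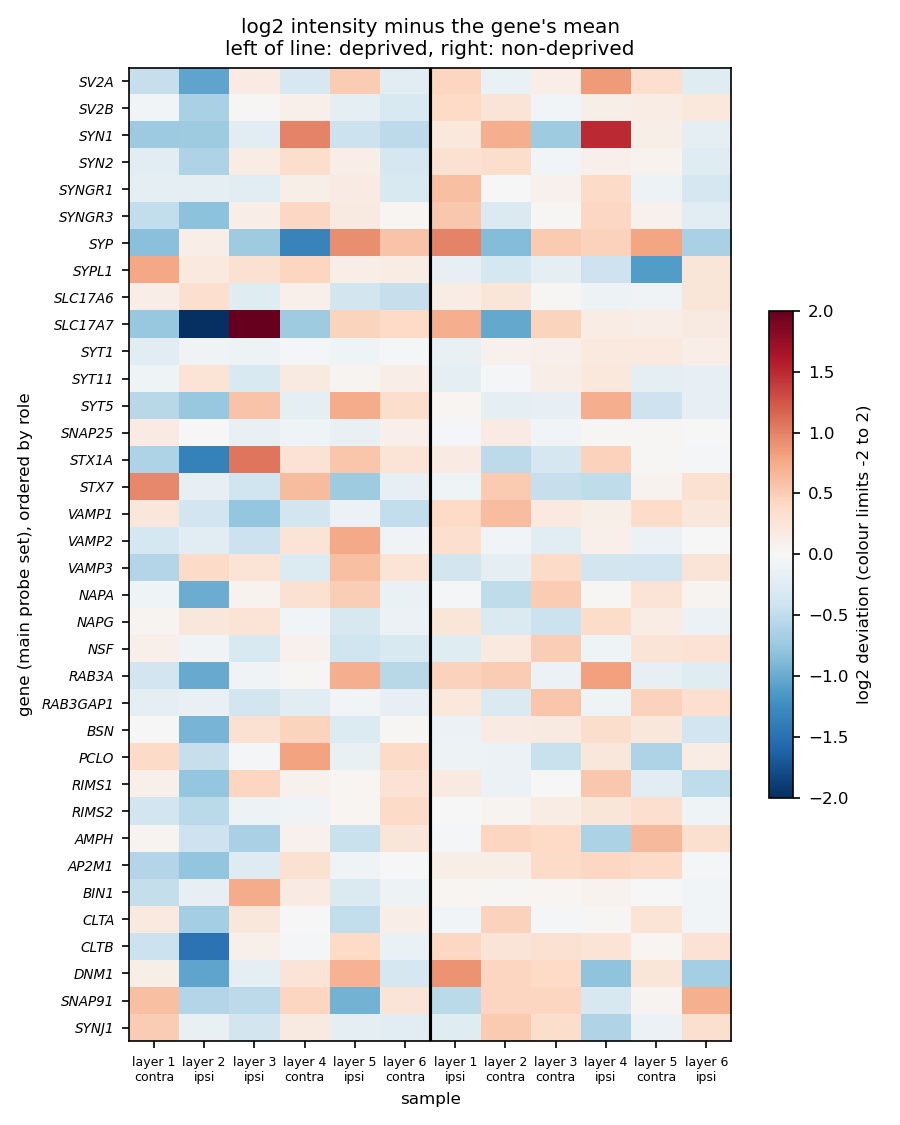
Log2 intensity of each of the 36 genes (rows, ordered by role) in each of the 12 samples (columns, deprived to the left of the black line), as the deviation from that gene's mean, with colours limited to -2 and 2. The deprived layer 2 column is the bluest, with the lowest value of 16 of the 36 genes, where 16.1% of all genes had theirs. The SNAP25 and SYT1 rows are nearly white.

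Cell class was compared over the 4 magnocellular and 8 parvocellular samples. Most genes of the set were lower in magnocellular layers, 26 negative to 10 positive with a median of -0.13, against 57.7% negative and -0.06 over all genes. None of the 57 probe sets passed, where 0.72% of all did. At an unadjusted p under 0.05, 11 of 57 probe sets (19.3%) differed, against 14.6% of all. By gene, 6 of 36 (16.7%) were lower, against 8.94%, and 2 (5.56%) were higher, against 5.74%. In no gene of the set were the classes fully separated, as they were in 0.892% of all genes downwards and 0.728% upwards. Without deprived layer 2, 21 of 36 were negative (58.3%, against 57.2% of all genes), the median was -0.03 against -0.06, and 1 gene was lower and 2 were higher at an unadjusted p under 0.05 (7.52% and 5.53% of all genes). With arrays centred on their medians, the split was 20 negative to 16 positive, against 46.5% negative over all genes.

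The class difference in the score came from the deprived samples. As a difference of mean scores, it was -0.157 over all samples, -0.341 among deprived samples alone and 0.0269 among non-deprived samples alone. In a linear fit of the score with deprivation and hemisphere as further terms, it was -0.0340 when only deprived layer 2 was left out. The same fit gave -0.0323 without both samples of highest GAPDH ratio and -0.0714 with arrays centred on their medians.

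STX1A had the smallest p for cell class. It measured 912.5, 1529, 1622 and 2619 in the magnocellular samples, and 1845, 2836 and 4888 (lowest, median, highest) in the 8 parvocellular samples. All but non-deprived layer 1 lay below every parvocellular sample. The difference was -0.87 ± 0.26 (0.547 times; unadjusted p = 0.0042, adjusted p = 0.146) and -0.46 without deprived layer 2. NAPA measured 815.7, 1138, 1525 and 1595 against 1488, 1833 and 2318, a difference of -0.61 ± 0.21 (adjusted p = 0.196) and -0.41 without deprived layer 2. A dimmer NAPA probe set did not share this. It measured 331.5, 1007 and 2277 (lowest, median, highest) in magnocellular samples and 581.3, 909 and 2009 in parvocellular samples.

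SLC17A7 measured 189.9, 409.3, 488.1 and 1375 in magnocellular samples and 505.4, 1011 and 3684 in parvocellular samples. Magnocellular values were the 3 lowest, and non-deprived layer 1 lay above the parvocellular median. The difference was -1.19 ± 0.45 (adjusted p = 0.249) and -0.56 without deprived layer 2. AP2M1 measured 6782, 7767, 12626 and 12709 against 9791, 13017 and 15614, a difference of -0.43 ± 0.15 (adjusted p = 0.22), and here the deprived layers 1 and 2 were the low samples.

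The 2 genes that were higher in magnocellular layers at an unadjusted p under 0.05 were SLC17A6 and VAMP1. SLC17A6 measured 37032, 37386, 39602 and 42638 in magnocellular samples and 24556, 31762 and 39596 in parvocellular samples. Of the parvocellular samples only non-deprived layer 6 reached the magnocellular range. The difference was 0.33 ± 0.14 (1.25 times; unadjusted p = 0.030, adjusted p = 0.29) and 0.24 (unadjusted p = 0.136) without deprived layer 2. VAMP1 measured 25558, 39051, 44087 and 51057 against 19448, 33488 and 42986, a difference of 0.32 ± 0.14 (adjusted p = 0.308) and 0.40 without deprived layer 2.

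Whether deprivation acted unequally in the classes was tested as an interaction, and no probe set passed it, in the set or elsewhere (0 of 11105, or 0%, in limma). At an unadjusted p under 0.05, 6 of 36 genes (16.7%) had a more negative deprivation difference in magnocellular layers, against 6.52% of all genes, and none had a more positive one, against 2.65%. Without deprived layer 2 the median interaction was -0.15 in place of -0.38, and 0 of 36 genes were at an unadjusted p under 0.05, where 2.75% of all genes were lower and 1.32% higher. That fit has 1 deprived magnocellular sample, assumed to vary like the other groups.

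The smallest interaction p-values were those of CLTB, STX1A and DNM1. For CLTB the layer differences were -0.86 and -1.73 in layers 1 and 2 and -0.20, -0.29, 0.35 and -0.42 in layers 3 to 6, an interaction of -1.15 ± 0.37 (adjusted p = 0.431) and -0.53 without deprived layer 2. For STX1A they were -0.78 and -0.83, against 1.41, -0.17, 0.53 and 0.28, an interaction of -1.32 ± 0.42 (adjusted p = 0.431) and -0.69 without deprived layer 2. In these brightest probe sets, both genes were lower in the deprived sample of both magnocellular layers. The contrast between classes was less clear in dimmer CLTB probe sets. A dimmer CLTB probe set had -0.93 and -0.73 in layers 1 and 2, against 0.02, -1.06, -0.50 and 0.18 in layers 3 to 6. Another had -0.63 and 0.08, against 0.53, -0.79, -0.05 and -0.29.

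For DNM1 they were -0.78 and -1.49, against -0.59, 1.06, 0.45 and 0.35, an interaction of -1.45 ± 0.51 (adjusted p = 0.435) and -0.97 without deprived layer 2. DNM1 measured 8079, 16573 and 27243 in deprived samples and 9699, 21160 and 31375 in non-deprived samples, ranges that overlapped almost fully. When deprived layer 1 was left out, the interaction passed for STX1A (-1.94, adjusted p = 0.0274), for CLTB (-1.78, adjusted p = 0.0147) and for a dimmer probe set each of BIN1 (-2.30) and RAB3GAP1 (1.92), among 207 probe sets called (1.86%). With that sample out, the magnocellular value of deprivation rests on deprived layer 2, the sample that stood apart.

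**Figure D5:**
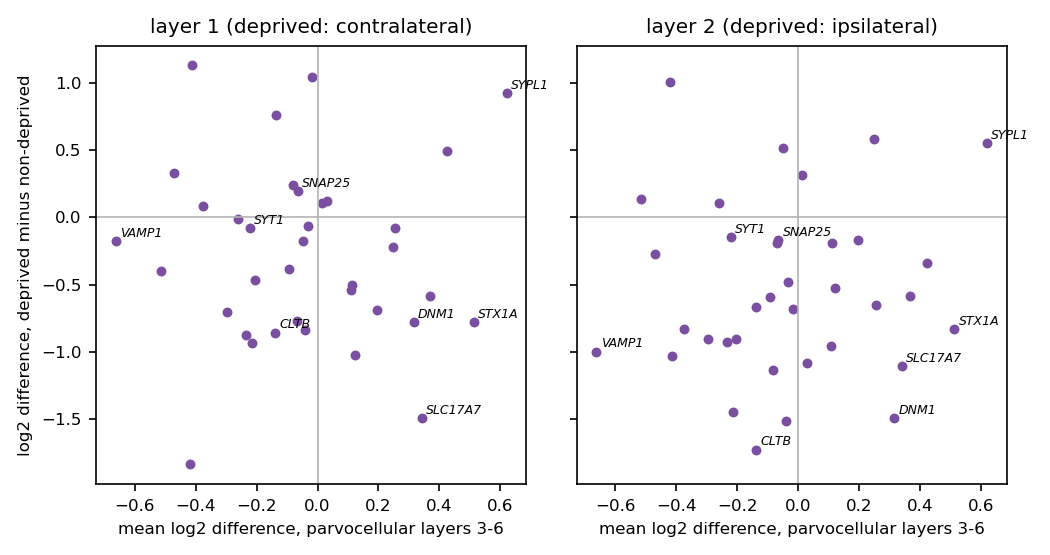
For each of the 36 genes, the log2 difference between deprived and non-deprived samples in layer 1 (left) and layer 2 (right) on the vertical axis, against its mean over parvocellular layers 3 to 6 on the horizontal axis; 1 point is 1 gene, with no error since each layer has 1 sample per condition. More points lie below 0 on the vertical axis, 25 of 36 in layer 1 and 29 of 36 in layer 2, and STX1A lies at -0.78 and -0.83 there with a positive parvocellular mean.

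Hemisphere was fitted beside deprivation, because each layer pair crosses it. None of the 57 probe sets passed, where 0.108% of all did. At an unadjusted p under 0.05, 6 of 36 genes were lower ipsilaterally, against 6.89%, and 0 were higher, against 13%. The split was 21 negative to 15 positive (42.3% negative over all genes) and 17 to 19 with quantile normalization (50.5%). It was 33 to 3 with arrays centred on their medians (75.5%), which moved the median of all genes by -0.32. Without deprived layer 2 it was 16 to 20 (40.7%), and 4 genes were lower and 4 higher at an unadjusted p under 0.05, against 6.11% and 12.2% of all genes. Of the 6, 4 were endocytic.

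SNAP91 measured 10724, 14427 and 33844 ipsilaterally and 21636, 27991 and 31432 contralaterally. All ipsilateral samples but non-deprived layer 6 were at or under 16574, below every contralateral sample, and non-deprived layer 6 was the highest of all 12. The difference was -0.74 ± 0.21 (adjusted p = 0.113). For AMPH, ipsilateral layer 6 lay among the contralateral samples at 33974, with the other ipsilateral samples at 17248 to 26633, against 28204 to 42314 contralaterally (-0.62, adjusted p = 0.0935). When non-deprived layer 6 was left out, SNAP91 (-0.96, adjusted p = 0.0091), AMPH (-0.72, adjusted p = 0.0156), SYNJ1 (-0.55, adjusted p = 0.037), the main STX7 probe set (-0.69, adjusted p = 0.0426) and a dimmer SYT1 probe set (-0.71, adjusted p = 0.0157) passed as lower ipsilaterally and a dimmer STX7 probe set as higher (1.03, adjusted p = 0.0369), where 7.63% of all probe sets passed. The median deviation of all genes was -0.053 on that array, 0.012 to 0.130 on the other ipsilateral arrays and -0.127 to 0.0056 on the contralateral arrays, and its part in this was not tested. The GAPDH 3'/5' ratio was 6.14 ± 3.37 (SD) ipsilaterally and 3.20 ± 0.72 contralaterally. It was 2.88 in non-deprived layer 6 and 2.87 in ipsilateral deprived layer 3, where SNAP91 measured 14500. The part of this ratio in the hemisphere differences was not tested.

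Other presynaptic genes were also examined. Of 93 further genes of vesicle release and retrieval, 68 were measured and 47 passed the filter, with 23 positive and 24 negative differences with deprivation (46.9% negative over all genes) and a median of 0.00 in size. None passed, and 5 were lower and 1 higher at an unadjusted p under 0.05, against 6.33% and 6.09% of all genes. The lists were not tested against each other. SCAMP5, a vesicle membrane protein, had a difference of -0.53 ± 0.15 (adjusted p = 0.19), RABAC1, a RAB-binding protein, -0.55 ± 0.17 (adjusted p = 0.207), AP2S1, another subunit of the AP2M1 complex, -0.48 ± 0.18 (adjusted p = 0.298) and STXBP3, a syntaxin-binding protein, 0.68 ± 0.25 (adjusted p = 0.298). By cell class 19 were positive and 28 negative and none passed, with SCAMP5 at -0.60 ± 0.16 (adjusted p = 0.104), RABAC1 at -0.45, LIN7B at -0.50 and RAB5A, an endosomal GTPase, at 0.41.

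Markers of neurons and of other cells also differed in level between deprived and non-deprived layers, although 0 of them passed for deprivation in limma, and 46.9% of all genes were lower. Of the 15 general neuron markers above the filter, 14 were lower in deprived layers with a median of -0.26, and -0.22 without deprived layer 2. At an unadjusted p under 0.05 in limma, 5 were lower, where 6.33% of all genes were. Sums of intensity, here and for the lists below, take every measured marker, also those under the filter. For the 17 general neuron markers measured, the sum was 462514 to 593136 in deprived samples and 593347 to 738087 in non-deprived samples. These ranges nearly touched without overlapping, and how often sums of other genes separate was not computed. All 14 oligodendrocyte markers above the filter of 20 listed were higher, with a median of 0.49 and sums of 134529 to 240080 against 97666 to 164710. Of these 14, 8 were higher at an unadjusted p under 0.05, where 6.09% of all genes were. Astrocyte markers were higher in 11 of 14 (median 0.13, and 0.21 without deprived layer 2, sums of 191280 to 265950 against 172332 to 237787).

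Microglial markers were higher in 6 of 6 (0.23, 10056 to 20201 against 10170 to 12973), vascular markers in 8 of 10 (0.28, and 0.17 without deprived layer 2, which had the highest sum; 15196 to 22222 against 13380 to 16440) and blood markers in 2 of 2 (0.24, 2832 to 13905 against 3626 to 6145). Interneuron markers were higher in 5 of 6 (0.37, 56623 to 105232 against 57173 to 80532), and relay cell markers lower in 4 of 6 (-0.18, and -0.10 without deprived layer 2; 100969 to 118553 against 103472 to 113693). The relay list holds SLC17A6 and SLC17A7, which belong to the set. No marker above the filter was at the intensity floor in every sample. By cell class, oligodendrocyte markers had a median of -0.48 (magnocellular minus parvocellular) and general neuron markers 0.03. Of the 14 oligodendrocyte markers, 8 were lower in magnocellular layers at an unadjusted p under 0.05 in limma, where 8.94% of all genes were. By cell class, 2 oligodendrocyte markers and 1 astrocyte marker were lower at an adjusted p under 0.05, where 0.72% of all probe sets passed in either direction. The part of cell makeup in the differences of the release genes was not tested.

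The genes of the set varied about as much as other genes. The median SD over the 12 samples was 0.39 on the log2 scale, against 0.40 for all genes, and 0.32 against 0.38 without deprived layer 2. In their brightest probe sets, the steadiest were SNAP25 (0.10), SYT1 (0.14) and SYT11 (0.19), and the most variable SLC17A7 (1.06), SYP (0.83), SYN1 (0.73) and STX1A (0.64). Dimmer probe sets of SNAP25 and SYT1 ranged more widely, from 10902 to 54578 and from 13763 to 28564. The genes below the filter had a low mean intensity, although some samples reached that of genes above it. CPLX2, a complexin that clamps SNARE complexes, measured 41.0 to 456.4, RAB3B, a relative of RAB3A, 87.8 to 710.3, SV2C, a relative of SV2A, 112.5 to 787.7 and UNC13A, a vesicle priming factor, 21.2 to 318.0. These were not tested. On an array designed for human RNA, a low intensity can come from a macaque sequence that its probes bind less well, and levels were not compared between probe sets.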

How the data were processed

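The deposited table held 1 scaled intensity per probe set and array, made by the authors; the software is not given in the sources used here. Arrays were used as scaled (2%-trimmed means 1500.45 to 1500.60). Gene names came from the platform annotation. The RefSeq macaque table listed all 43 symbols. Sequences and coordinates were not used here. A floor of 110.8, the 20th percentile of all values, was set, log2 was taken, and probe sets with a mean log2 of at least 8.92 were tested, without 68 controls. The fit used lmFit and eBayes with a trend (limma 3.58.1, R 4.3.3) with deprivation, cell class and hemisphere as terms (8 residual degrees of freedom, 7 with the interaction), two-sided, with Benjamini-Hochberg adjustment over all probe sets tested. Changes are log2 differences ± standard error. The fit was tested on simulated data. The members and lists were chosen with earlier results of these data known. Per-sample values are given for the 8 genes of smallest p for deprivation, 6 for cell class and 3 for the interaction, and for SNAP25, SYT1, VAMP1, VAMP2 and SLC17A6. SNAP91 and the hemisphere values of AMPH were given after they were seen. The number of arrays limits the precision.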

Additional observations from a re-analysis of the deposited data

Results flagged for a closer look

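In 82 groups of 6 samples, the gap between the highest or lowest sample and its neighbour was set against the range of the group, a measure that chance alone brings past its limit in about 5% of groups. The score was lowest in deprived layer 2, at -0.494 against -0.120 to 0.0950 in the other deprived samples (gap 0.634 of the range). RIMS1 was lowest in the same sample, at 321.1 against 565.4 to 738.1 (0.680). SYN1 was highest in deprived layer 4, at 12360 against 3752 to 5297 in the other deprived samples (0.711). SYT1 was lowest in non-deprived layer 1, at 78403 against 92173 to 100344 (0.656). In non-deprived layer 2, SNAP25 was highest, at 69215 against 59662 to 62872 (0.647), and SLC17A7 lowest, at 409.3 against 906.3 to 1375 (0.656). UNC13A, below the filter, was highest in deprived layer 6, at 318.0 against 21.2 to 131.0 (0.841), and in non-deprived layer 2, at 296.5, with all other non-deprived samples under the floor (1.00).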

How the results depend on the processing

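Under 13 other settings and with each of 12 samples left out in turn, 23 differences of genes given by sample (14 for deprivation, 6 for cell class and 3 for the interaction) gave 491 values. Of these, 472 kept their direction and their side of the threshold and 3 passed it: VAMP1 without deprived layer 5, and CLTB and STX1A for the interaction without deprived layer 1. The other 16 reversed, all of them deprivation differences that had not passed. With quantile normalization SNAP25 became 0.063 and VAMP2 0.0041. In parvocellular layers alone VAMP2 became 0.20, SLC17A7 0.34 and DNM1 0.32. SLC17A7 became 0.077 with the GAPDH ratio as a covariate and 0.39 without both samples of its highest values. With 1 sample left out, VAMP2 was -0.16 to 0.12, SLC17A7 -0.58 to 0.22 and DNM1 -0.41 to 0.090. The count of probe sets past the threshold with 1 sample left out was 0 to 1 for deprivation, 0 to 6 for hemisphere and 0 to 4 for the interaction. The 12 probe sets at an unadjusted p under 0.05 for deprivation became 7 with quantile normalization and 7 in the parvocellular layers alone. The 11 for cell class became 6 with median centring, 7 with no variance trend and 5 to 17 with 1 sample left out. The score difference by cell class, -0.157, reversed to 0.0269 in non-deprived samples alone, a split added after the data were seen, as was the refit of every gene without deprived layer 2. With the layer number as a block, 0 probe sets passed for deprivation, 14 were at an unadjusted p under 0.05 and the score difference was -0.160, and no call changed. Deviations from the deprived and non-deprived means were not positively correlated between samples of the same layer number (-0.25 to -0.0016). In 0 of 6 layers were the 2 samples closest to each other. Hemisphere and cell class were left in these deviations and each pair spans both hemispheres, so this check cannot tell whether the layer number pairs samples. Signal over background limits CPLX2, RAB3B, SV2C and UNC13A, for which no detection calls were used here.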
